A study of Mus musculus with 6 samples.

Results

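The genes described here are 10 markers of the pigment cell lineage: Tyr, Tyrp1, Dct, Pmel, Mlana, Slc45a2, Oca2, Mc1r, Mitf and Sox10. They were chosen by symbol from the deposited table of 28368 mouse genes, each had 1 row, and all 10 were among the 18049 genes that passed the filter on low counts. RNA came from mouse tumours in 2 groups of 3 libraries, treated tumours, which received MS-DF-MS therapy over 12 h, and control tumours, which received none. The series title describes implanted depots that carry a STING agonist and an inducer of apoptosis, and the design text asks how STING and interferon-beta signalling is switched on and strengthened within the tumour. The labels give neither the tumour type nor the mouse strain, genotype or age, and no group had an empty depot, so drug and implant cannot be told apart.

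Melanocytes make pigment inside melanosomes, organelles related to lysosomes. The transcription factor MITF, itself switched on by SOX10 and by signals through the receptor MC1R, activates the genes for the melanin-making enzymes, for the fibrils on which melanin is laid down and for transporters that set the chemistry of the melanosome. Melanomas of mice and people often keep this programme, and its proteins are known targets of T cells in melanoma.

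The labelled tissue, tumour, was checked against these markers. All 10 were abundant in every library, and together they took 2.31, 2.36 and 2.48% of all counts in treated 1, 2 and 3, against 2.48, 2.36 and 2.22% in control 1, 2 and 3. Library totals ran from 57017043 to 66634551 counts, so none of the 10 was limited by depth, and the smallest single count among them was 4945, for Oca2 in control 3. In bulk tissue, fewer pigment cells and less RNA per pigment cell cannot be told apart. Libraries that stood apart were treated 3, at 72.9 on the first principal component against -37.9 to 13.3 for the other 5, and treated 1, which held 7664 counts over 12 keratinocyte markers where the other 5 libraries held 81 to 151. Nothing in the labels ties each library to its own mouse, so p-values here reflect only how these 3 libraries per group scatter, some of which may be technical.

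MITF binds short E-box sequences with the letters CATGTG or CACGTG. Windows of 250 bases before the RefSeq start (GRCm38.p6) were at hand for 6 of the 10 genes, Tyr, Tyrp1, Dct, Mitf, Mc1r and Oca2. CATGTG, read on both strands, was present in 12.3% of all 32851 such windows of the table and in those of Tyr, Tyrp1, Dct, Mc1r and Oca2. The palindrome CACGTG was in 6.02% of windows and in none of these 6 genes, and none of the 3 windows of Mitf held either motif. A missing match says only that these letters are not in this window. The longest stretch shared by Tyr, Tyrp1 and Dct was GTCATGTGCT, which contains CATGTG and lay in 0.155% of windows. It began 23 bases before the start of Tyr, 48 before that of Tyrp1 and 152 before that of Dct, each counted from the RefSeq start. The Tyrp1 stretch lies inside the deposited span of the gene and in an exon of a GENCODE M21 transcript that starts further upstream, which is not so for the others printed. The sequences are shown because these related enzymes, all known targets of MITF in melanocytes, hold the same element, so their values can be read side by side. They read 5′ to 3′ on the strand of each gene, with the shared stretch in capitals, or for Mc1r both CATGTG matches, the first on the opposite strand.
Tyr, chr7:87493513-87493570, minus strand: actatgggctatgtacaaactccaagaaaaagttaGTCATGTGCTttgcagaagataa
Tyrp1, chr4:80834155-80834184, plus strand: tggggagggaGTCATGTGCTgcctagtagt
Dct, chr14:118052354-118052433, minus strand: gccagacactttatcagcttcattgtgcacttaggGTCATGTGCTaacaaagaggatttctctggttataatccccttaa
Mc1r, chr8:123406985-123407071, plus strand: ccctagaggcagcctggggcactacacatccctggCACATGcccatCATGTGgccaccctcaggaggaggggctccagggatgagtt

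Set against control tumours, the treated tumours gave nearly the same share of their counts to the 10 pigment and lineage genes, 2.38 ± 0.0855% in treated and 2.35 ± 0.127% in control libraries (SD, n = 3). That share rests mostly on Tyrp1, Dct and Pmel, with 8240, 6278 and 5053 mean CPM, against 1034 for Tyr, the next. It says little about the less abundant genes. By edgeR's quasi-likelihood test, 0 of the 10 genes rose and 0 fell at an adjusted p under 0.05, a threshold passed by 1.61% of all tested genes (1.36% higher, 0.249% lower). With so few genes called in the table, a count of 0 of 10 does not set these genes apart. The estimated differences ran from -24.2% for Mitf to 13.3% for Pmel, with 4 log2 fold changes above and 6 below 0. Their median was -0.011, beside -0.003 over all tested genes. At an unadjusted p under 0.05 there was 1 of the 10, Pmel, beside 16% of all tested genes. DESeq2, limma-voom, limma-voom with sample weights and limma on log2 FPKM also called 0, with 2, 2, 4 and 0 at an unadjusted p under 0.05. Of all 18049 tested genes, 3042, 2915, 3959 and 2853 were under that p in the same 4 fits.

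**Figure D1:**
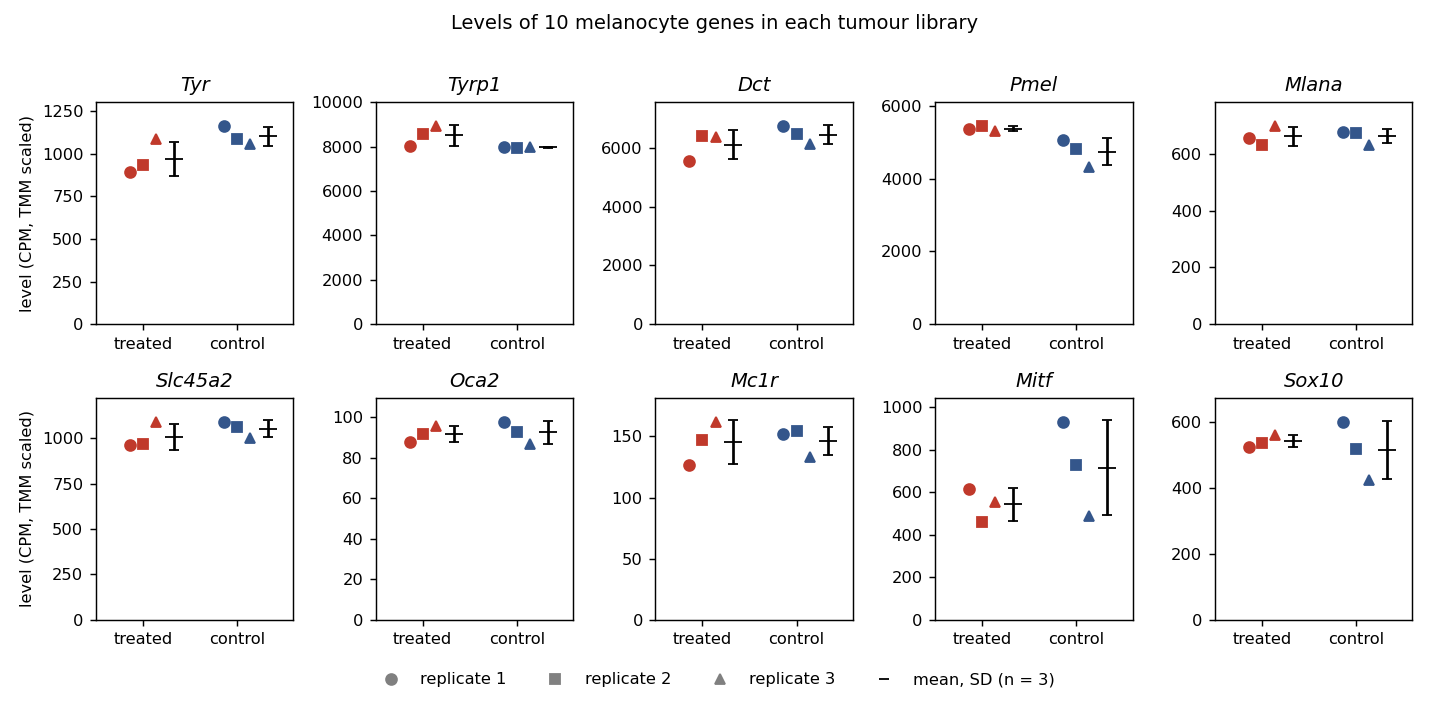
Level of each of the 10 genes (CPM scaled by TMM, each axis from 0) in the 3 treated and 3 control libraries, with the mean and SD beside them. Treated and control points overlap in 8 panels, and all 3 treated points are above the controls for Tyrp1 and Pmel. Of all tested genes, 23.3% had groups that did not overlap, in either direction.

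The melanin-making enzymes come first. Tyrosinase, the product of Tyr (ENSMUSG00000004651, chromosome 7 from 87424771 to 87493512), catalyses the first steps from tyrosine towards melanin. Tyr had 890.2, 930.7 and 1083.3 CPM in treated 1, 2 and 3, against 1162.2, 1083.7 and 1055.6 CPM in control 1, 2 and 3. Treated 1 and 2 were below every control and treated 3 lay among them. The means were 968.1 ± 102 CPM in the treated group, against 1100.5 ± 55.3 CPM in controls (SD, n = 3), a log2 fold change of -0.18 ± 0.08 (SE; edgeR adjusted p = 0.317). The 95% interval of the difference, treated relative to control, was -22.7 to 0.159%. Without treated 3 the log2 fold change of Tyr was -0.27 (edgeR adjusted p = 0.111). It ran from -0.27 to -0.13 over the 16 alternatives described below.

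Tyrp1 (ENSMUSG00000005994, chromosome 4 from 80834123 to 80851718) encodes a melanosomal relative of tyrosinase that acts late in the synthesis of dark melanin in mice. It had 8031.6, 8555.7 and 8943.3 CPM in treated 1, 2 and 3, against 8011.3, 7926.3 and 7971.6 CPM in control 1, 2 and 3. The 3 treated libraries were above all 3 controls, as in 2 of the 10 genes and 12% of all tested genes. Counting both directions, the groups did not overlap in 2 of the 10 genes and 23.3% of all tested genes. The gap between treated 1 and control 1 was small, and the difference did not pass the threshold (log2 fold change 0.09 with an SE of 0.05, n = 3; edgeR adjusted p = 0.375). Controls hardly differed among themselves, with a coefficient of variation (SD over mean) of 0.534%. Of the 4629 genes with at least 50 mean CPM, 1.17% had a smaller one.

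Dct (ENSMUSG00000022129, chromosome 14 from 118012790 to 118052185) encodes dopachrome tautomerase, the enzyme between the other two. It had 5554.1, 6416.4 and 6366.7 CPM in treated 1, 2 and 3, against 6746.1, 6473.5 and 6113.7 CPM in control 1, 2 and 3. The groups overlapped, with treated 1 the lowest library (edgeR adjusted p = 0.64 for a log2 fold change of -0.08 with an SE of 0.07, n = 3). The interval for Dct was -14.7 to 5.46%.

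Pmel (ENSMUSG00000025359, chromosome 10 from 128704195 to 128715627) encodes the protein that forms the fibrils of the melanosome. It had 5367.1, 5445.2 and 5296.3 CPM in treated 1, 2 and 3, against 5069.0, 4818.7 and 4324.0 CPM in control 1, 2 and 3. All treated libraries were above all controls, and controls were more scattered (379 CPM SD) than treated libraries (74.5 CPM SD). The log2 fold change of 0.18 ± 0.06 (SE, n = 3) had the smallest p of the 10 genes and did not pass over all genes (edgeR adjusted p = 0.209). Its interval was 2.84 to 24.9%. The span of Pmel overlaps that of Cdk2 on the other strand by 836 bases, and whether counting used strand is not given in the sources used here. Cdk2, a cell cycle kinase and reported MITF target in human melanoma, is named here only for that overlap. It had 13.8% of the counts of Pmel and stood lower in treated tumours (658.6 ± 74.3 CPM, against 736.5 ± 36.1 CPM in control tumours, SD, n = 3; edgeR adjusted p = 0.418).

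Mlana (ENSMUSG00000024806, chromosome 19 from 29697824 to 29708634) encodes MART-1, which helps PMEL to mature and is a classic melanoma antigen. It had 654.1, 632.0 and 698.4 CPM in treated 1, 2 and 3, against 677.4, 673.6 and 632.7 CPM in control 1, 2 and 3. The groups overlapped fully, with means of 661.5 ± 33.8 CPM in the treated group, against 661.2 ± 24.8 CPM in controls (SD, n = 3; edgeR adjusted p = 0.999). Its interval was -9.01 to 9.99%.

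Slc45a2 (ENSMUSG00000022243, chromosome 15 from 11000721 to 11029233) and Oca2 (ENSMUSG00000030450, chromosome 7 from 56239760 to 56536518) encode membrane proteins that keep the melanosome at a pH suited to tyrosinase. Slc45a2 had 965.9, 968.4 and 1092.3 CPM in treated 1, 2 and 3, against 1093.5, 1062.7 and 1001.3 CPM in control 1, 2 and 3. Oca2 had 87.9, 91.5 and 95.6 CPM in treated 1, 2 and 3, against 97.8, 92.9 and 86.7 CPM in control 1, 2 and 3. Both genes overlapped between groups (log2 fold changes -0.06 ± 0.07 and -0.01 ± 0.07, SE, n = 3; edgeR adjusted p = 0.72 and 0.955). Oca2 holds an antisense gene, Gm44506, which had at most 6 counts in a library, and an antisense gene inside Dct, 4930435M08Rik, had 70 to 138.

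Mc1r (ENSMUSG00000074037, chromosome 8 from 123407107 to 123410744) encodes the melanocortin receptor, which raises cyclic AMP and through it Mitf. It had 126.6, 147.2 and 162.2 CPM in treated 1, 2 and 3, against 152.0, 154.1 and 132.8 CPM in control 1, 2 and 3. Treated libraries were both the lowest and the highest of the 6 (edgeR adjusted p = 0.978 for a log2 fold change of -0.01 with an SE of 0.10, n = 3). The span of Mc1r overlaps 2 other genes of GENCODE M21. These are Gm20388, a protein-coding gene on the same strand, and Gm38092, on the other strand. Whether their reads entered the counts of Mc1r was not tested.

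Sox10 (ENSMUSG00000033006, chromosome 15 from 79154908 to 79165240) encodes the neural crest factor that activates Mitf. It had 524.8, 537.4 and 560.5 CPM in treated 1, 2 and 3, against 601.3, 518.6 and 424.9 CPM in control 1, 2 and 3. Treated libraries lay close together between the extremes of the controls (edgeR adjusted p = 0.822 for a log2 fold change of 0.07 with an SE of 0.11, n = 3).

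Mitf (ENSMUSG00000035158, chromosome 6 from 97807052 to 98018707), the central factor of the lineage, was the least tightly measured. It had 613.9, 460.5 and 554.2 CPM in treated 1, 2 and 3, against 932.8, 727.0 and 487.3 CPM in control 1, 2 and 3. Control 3 lay within the treated range and control 1 was the highest library. The means were 542.9 ± 77.3 CPM in the treated group, against 715.7 ± 223 CPM in controls (SD, n = 3), a log2 fold change of -0.40 ± 0.21 (SE; edgeR adjusted p = 0.416). Its interval, -46.2 to 6.96%, was the widest of the 10. The coefficient of variation of Mitf among controls was 31.1%, exceeded by 0.951% of genes with at least 50 mean CPM, whose median was 4.82%. Without control 3 the log2 fold change was -0.61, and without control 1 it was -0.16, in both cases short of the threshold (edgeR adjusted p = 0.199 and 0.783). Mitf has several promoters, and counts per gene do not separate its isoforms. A processed pseudogene on the other strand, Gm15531, overlaps the span of Mitf in GENCODE M21.

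**Figure D2:**
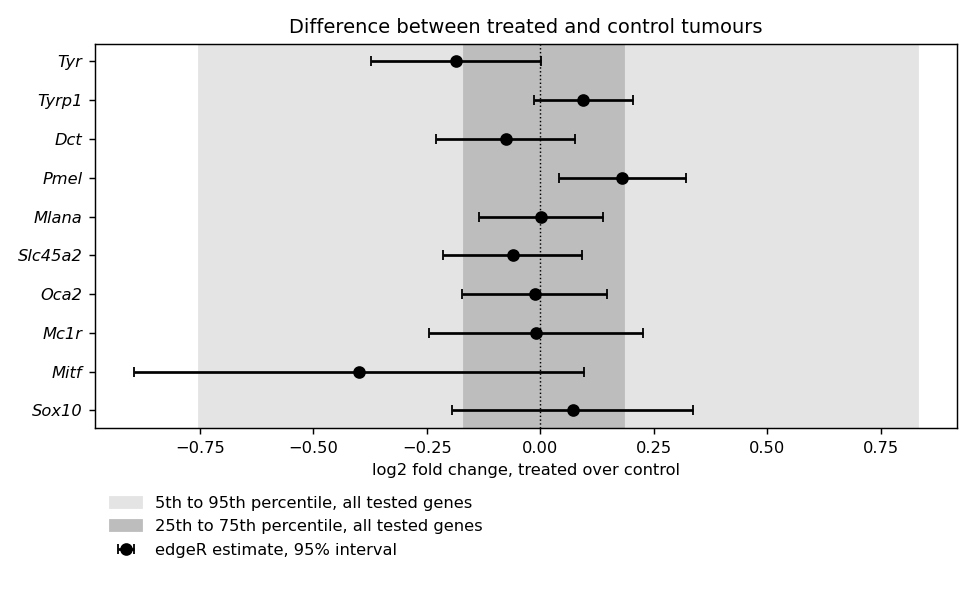
Log2 fold change, treated over control, of each of the 10 genes with its 95% interval from edgeR, on bands that mark the 5th to 95th and the 25th to 75th percentile of all 18049 tested genes. The interval of Pmel alone lies to 1 side of 0 before adjustment, and that of Mitf is the widest. The bands include genes of low count. Among genes with at least 50 mean CPM, as all 10 have, the 5th to 95th percentile was -0.266 to 0.305. The 25th to 75th was -0.117 to 0.081. The estimate of Mitf lies below the former range, and those of Tyr, Tyrp1 and Pmel lie outside the latter.

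Libraries of 1 group also differed in these genes. Within the control group, 9 of the 10 genes were highest in control 1, the exception being Mc1r, and 9 were lowest in control 3, the exception being Tyrp1. Within the treated group 7 were highest in treated 3 and 7 lowest in treated 1. The mean log2 CPM of the 10 genes, relative to its control mean, was -0.087, -0.064 and 0.045 in treated 1, 2 and 3, against 0.116, 0.023 and -0.139 in control 1, 2 and 3. Markers of other cells also differed between libraries. The 8 skeletal muscle markers summed to 168.3, 39.3 and 13.1 CPM in treated 1, 2 and 3, against 83.0, 70.6 and 41.7 CPM in control 1, 2 and 3. The 11 fibroblast and pericyte markers summed to 572.6 to 624.7 CPM in treated libraries, against 647.2, 515.7 and 366.0 CPM in control 1, 2 and 3, and the 11 tested leukocyte markers to 45.7 to 153.4 CPM in treated libraries, against 102.2 to 137.3 CPM in controls. Their part in these differences was not tested.

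**Figure D3:**
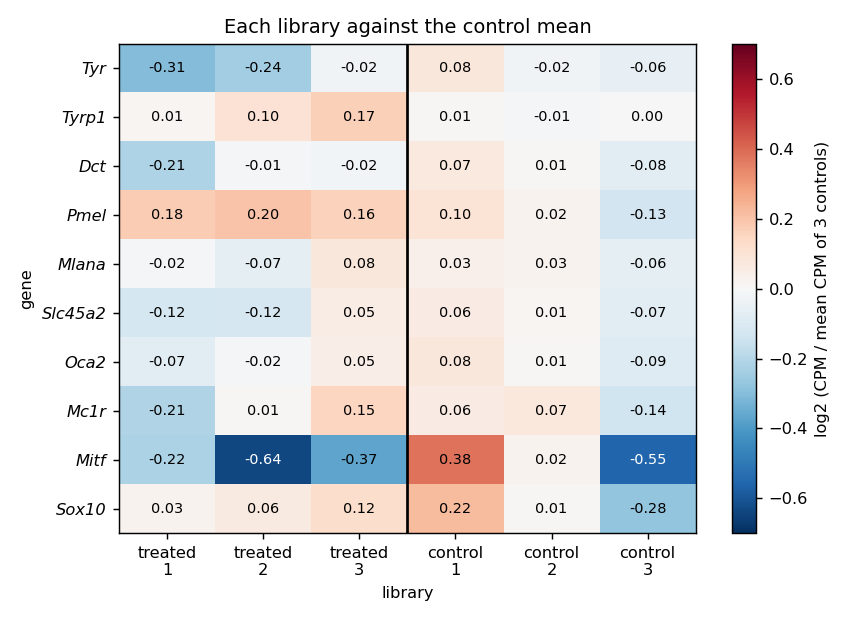
Log2 ratio of each library to the mean of the 3 controls for each of the 10 genes (CPM), treated libraries left of the line and controls right of it. Mitf has the widest spread, from -0.64 in treated 2 to 0.38 in control 1, and Pmel is the gene with all treated libraries at 0.16 or above.

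The balance among the genes was read from ratios. A ratio of 2 genes within a library does not depend on scaling, and for genes made by the same cells a difference in the share of those cells cancels out of it. Tyrp1 over Dct was 1.45, 1.33 and 1.40 in treated 1, 2 and 3, against 1.19, 1.22 and 1.30 in control 1, 2 and 3, so the groups did not overlap. Tyr over Tyrp1 was 0.111, 0.109 and 0.121 in treated 1, 2 and 3, against 0.145, 0.137 and 0.132 in control 1, 2 and 3, again without overlap. Both ratios contain Tyrp1. Tyr over Dct overlapped between groups. It was 0.160, 0.145 and 0.170 in treated 1, 2 and 3, against 0.172, 0.167 and 0.173 in control 1, 2 and 3. Of the 45 pairs of the 10 genes, 13 had ratios that did not overlap between groups, and 32.4% of all pairs of genes with at least 50 mean CPM did so. The count over the 10 genes is thus not above that background. Tyr was in 6 of the 13 pairs, Pmel in 5, Slc45a2 in 4, and Mitf and Sox10 in 0. Relative to the mean log2 CPM of all 10 genes, Tyr (0.002 in treated, 0.155 in control) and Pmel (2.48 in treated, 2.26 in control) were the 2 of 10 genes whose groups did not overlap, beside 16.7% of all tested genes on the same measure.

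Per transcript length, in the deposited FPKM, the order was Tyrp1, Pmel, Dct, Mlana, Slc45a2, Sox10, Tyr, Mitf, Mc1r and Oca2. Over all 6 libraries Tyrp1 averaged 2577.9 ± 126 FPKM (SD, n = 6), the 10th highest gene of the table, Pmel 1950.4 ± 159 and Dct 942.2 ± 59.7. Mlana averaged 553.7 ± 25.6 FPKM, Slc45a2 305.8 ± 19.2, Sox10 153.1 ± 17.1 and Tyr 128.8 ± 13.4. Mitf averaged 89.9 ± 25.6 FPKM, Mc1r 35.5 ± 3.29 and Oca2 20.6 ± 0.997. The library ranges of Sox10 and Tyr overlapped, and Sox10 was above Tyr in 5 of 6 libraries, the exception being control 3. Those of Tyr and Mitf also overlapped, although Tyr was above Mitf within each of the 6 libraries. The ranges of the other 7 neighbouring pairs did not overlap. Tyrosinase mRNA thus stood far below the mRNAs of its relatives, and the span from Tyrp1 to Oca2 was 125-fold.

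**Figure D4:**
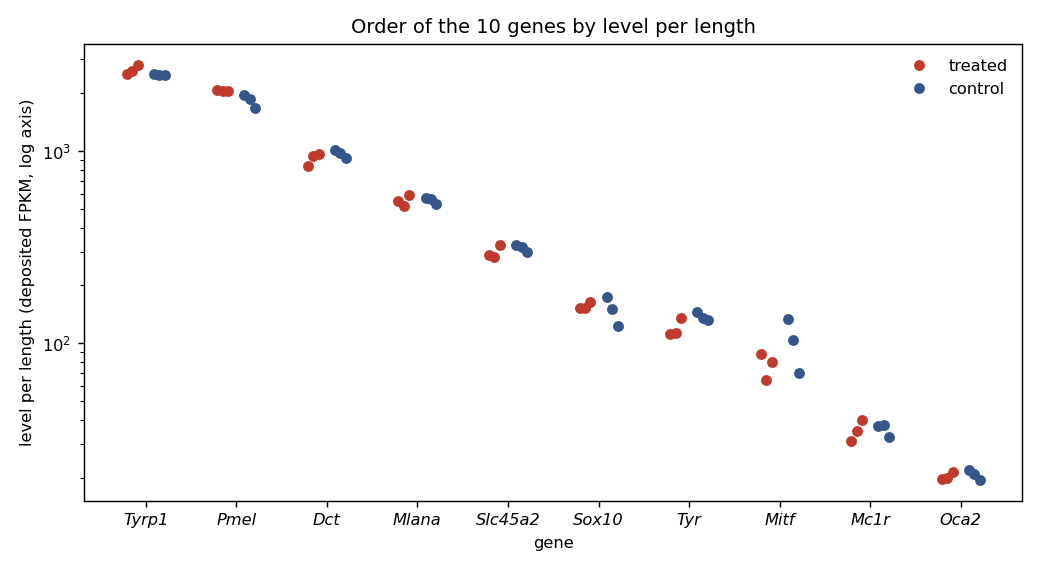
Deposited FPKM (log axis) of the 10 genes in each treated and control library, ordered by mean. Tyrp1 leads at 2482.96 to 2815.7 FPKM and Oca2 is last at 19.4 to 21.9 FPKM. The library ranges of Sox10 and Tyr overlap, as do those of Tyr and Mitf.

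Other genes of the pigment cell were grouped by role. Of 14 further pigment and melanosome membrane genes, 0 rose and 0 fell by edgeR. At an unadjusted p under 0.05 there were 4, beside 16% of all tested genes. DESeq2 called 1, Mfsd12, and the 3 limma fits called 0 (median log2 fold change of the list 0.11). Over all tested genes DESeq2 called 754 higher and 367 lower. Gpnmb, a melanosomal glycoprotein also made by macrophages, had 5470.1 ± 680 CPM in the treated group, against 4654.6 ± 130 CPM in controls (SD, n = 3; edgeR adjusted p = 0.23). Mfsd12, a lysosomal and melanosomal cysteine transporter, had 34.0, 32.0 and 24.2 CPM in treated 1, 2 and 3, against 22.6, 20.3 and 22.4 CPM in control 1, 2 and 3 (edgeR adjusted p = 0.151). It passed without treated 3 (edgeR adjusted p = 0.0347; 0.0259 to 0.441 over the 16 alternatives). Cd63, a tetraspanin needed to sort PMEL, had a log2 fold change of 0.13 ± 0.05 (SE, n = 3, edgeR adjusted p = 0.307).

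Of 29 genes for the building and transport of melanosomes, 0 rose and 0 fell by edgeR (median 0.04). At an unadjusted p under 0.05 there were 6, beside 16% of all tested genes. Mlph, the linker between RAB27A and the motor myosin Va, stood at 420.3 ± 32.7 CPM in the treated group, against 347.9 ± 15.7 CPM in controls (SD, n = 3; edgeR adjusted p = 0.124). Dtnbp1 (82.5 ± 2.86 CPM in treated, 97.2 ± 1.21 CPM in control tumours, SD, n = 3; edgeR adjusted p = 0.108) and Bloc1s3 (17.6 ± 1.56 CPM in treated, 13.3 ± 0.362 CPM in control tumours, SD, n = 3; edgeR adjusted p = 0.136) encode subunits of the same sorting complex, BLOC-1, and lay on opposite sides of their controls. Myo5a, which encodes that motor, overlapped between groups (edgeR adjusted p = 0.638). DESeq2 called Mlph, Dtnbp1 and Bloc1s3, limma-voom with sample weights called Mlph and Dtnbp1, and the other limma fits called 0. Over all tested genes DESeq2 called 754 higher and 367 lower, and limma-voom with sample weights 601 and 191. Of 17 tested MITF targets other than the 10 genes, 0 rose and 0 fell by edgeR (median -0.04). At an unadjusted p under 0.05 there were 6, beside the same 16%. Mlph, which is in both lists, was the 1 target that DESeq2 or the weighted limma fit called. Among them Asah1, acid ceramidase, had 102.7 ± 7.63 CPM in the treated group, against 120.1 ± 7.74 CPM in controls (SD, n = 3; edgeR adjusted p = 0.224).

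Of 16 tested transcription regulators of the lineage, 0 rose and 0 fell by edgeR (median 0.17). At an unadjusted p under 0.05 there were 4, beside 16% of all tested genes. Usf1, which mediates ultraviolet responses of pigment genes, stood at 46.0 ± 6.74 CPM in treated tumours, against 34.5 ± 0.695 CPM in controls (SD, n = 3; edgeR adjusted p = 0.124) and passed without treated 3 (edgeR adjusted p = 0.0207; 0.0176 to 0.39 over the 16 alternatives). DESeq2 called Usf1 alone in this list, beside 754 higher and 367 lower of all tested genes, and the limma fits called 0. Usf2 (edgeR adjusted p = 0.219), Snai2, a neural crest factor (0.198), and the abundant Ctnnb1, beta-catenin (0.49), did not pass.

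Among receptors and ligands, 2 of 13 tested rose and 0 fell by edgeR (list median 0.18), beside 1.36% and 0.249% of all tested genes. Erbb3, the neuregulin receptor of neural crest cells, had 67.0, 65.3 and 69.8 CPM in treated 1, 2 and 3, against 42.5, 39.3 and 43.0 CPM in control 1, 2 and 3. Every treated library was well above every control, a 1.62-fold rise (edgeR adjusted p = 0.00215 for a log2 fold change of 0.70 with an SE of 0.07, n = 3) that held in all 16 alternatives (adjusted p up to 0.0243). Edn1, endothelin-1, a peptide that acts on melanocytes through EDNRB and is made mainly by endothelium, had 3.90, 5.16 and 5.25 CPM in treated 1, 2 and 3, against 0.170, 0.699 and 0.912 CPM in control 1, 2 and 3. It rose 8.05-fold (edgeR adjusted p = 0.0349), and its call was lost in 7 of the 16 alternatives: without treated 1, 2 or 3 or control 2 or 3 (edgeR adjusted p up to 0.167), without the low-count filter (0.0883) and with the replicate block (0.0506). Endothelial markers moved with it: 6 of 12 rose by edgeR, beside 1.36% of all tested genes, and 3 of 12 without treated 2 or control 1, 2 or 3 and with the replicate block. Vwf went the other way, with 32.8 ± 4.27 CPM in the treated group, against 46.1 ± 12.8 CPM in controls (SD, n = 3; edgeR adjusted p = 0.284). The 12 markers summed to 443.6 to 471.8 CPM in treated and 345.9 to 365.1 CPM in control libraries. Most of that sum was Eng, at 262.2 to 271.4 CPM in treated and 228.3 to 238.4 CPM in control libraries. Eng was not called by edgeR (adjusted p = 0.131). The part of the 12 markers in the rise of Edn1 was not tested. Pomc, the precursor of the melanocortins, had 2.72 ± 0.293 CPM in treated tumours, against 1.48 ± 0.34 CPM in controls (SD, n = 3; edgeR adjusted p = 0.163). Met, the abundant receptor of hepatocyte growth factor, had a log2 fold change of 0.05 ± 0.07 (SE, n = 3, edgeR adjusted p = 0.806). DESeq2 and the 3 limma fits called Edn1 and Erbb3, and limma-voom with sample weights also called Pomc higher (adjusted p = 0.0472). Over all tested genes DESeq2 called 754 higher, and limma-voom with sample weights 601.

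By edgeR, 1.36% of all tested genes rose and 0.249% fell. Of 15 genes known to rise in melanoma cells that lose the pigment programme, 1 rose and 0 fell (median 0.21). That gene was Nt5e, the ectonucleotidase CD73, which endothelial and immune cells also make. It had 6.21, 4.99 and 4.61 CPM in treated 1, 2 and 3, against 1.93, 1.04 and 1.61 CPM in control 1, 2 and 3, without overlap, a 3.44-fold rise (edgeR adjusted p = 0.0215, n = 3). The part of the endothelial markers in it was not tested. Its call was lost in 6 of the 16 alternatives: without treated 1, treated 2, control 2 or control 3 (edgeR adjusted p up to 0.106), without the low-count filter (0.0536) and with limma on log2 FPKM (0.0534). Axl, a receptor kinase, had 239.2, 205.6 and 121.6 CPM in treated 1, 2 and 3, against 116.9, 141.2 and 151.0 CPM in control 1, 2 and 3 (edgeR adjusted p = 0.356), and passed without treated 3 (0.0366; 0.0366 to 0.587 over the 16 alternatives). Ccn1, a matrix protein, had 60.8, 140.3 and 157.2 CPM in treated 1, 2 and 3, against 59.2, 58.1 and 61.7 CPM in control 1, 2 and 3 (edgeR adjusted p = 0.167), and passed without treated 1 (0.000715; 0.000715 to 0.431 over the 16 alternatives) and with limma-voom with sample weights. Nes, nestin, stood lower in treated tumours and missed the threshold by edgeR, while DESeq2 called it lower with an adjusted p of 0.00934 (31.1 ± 2.22 CPM, against 39.7 ± 1.55 CPM in control tumours, SD, n = 3; edgeR adjusted p = 0.0867). Over all tested genes DESeq2 called 367 lower, and limma-voom with sample weights called 601 higher. Of 8 other surface and secreted markers of melanocytic cells, 0 passed in either direction by edgeR, 0 had an unadjusted p under 0.05, and DESeq2 and the limma fits called 0 (median 0.10). Of these, Cspg4, Mcam, Tspan10 and Fabp7 had edgeR adjusted p of 0.343, 0.596, 0.82 and 0.351.

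**Figure D5:**
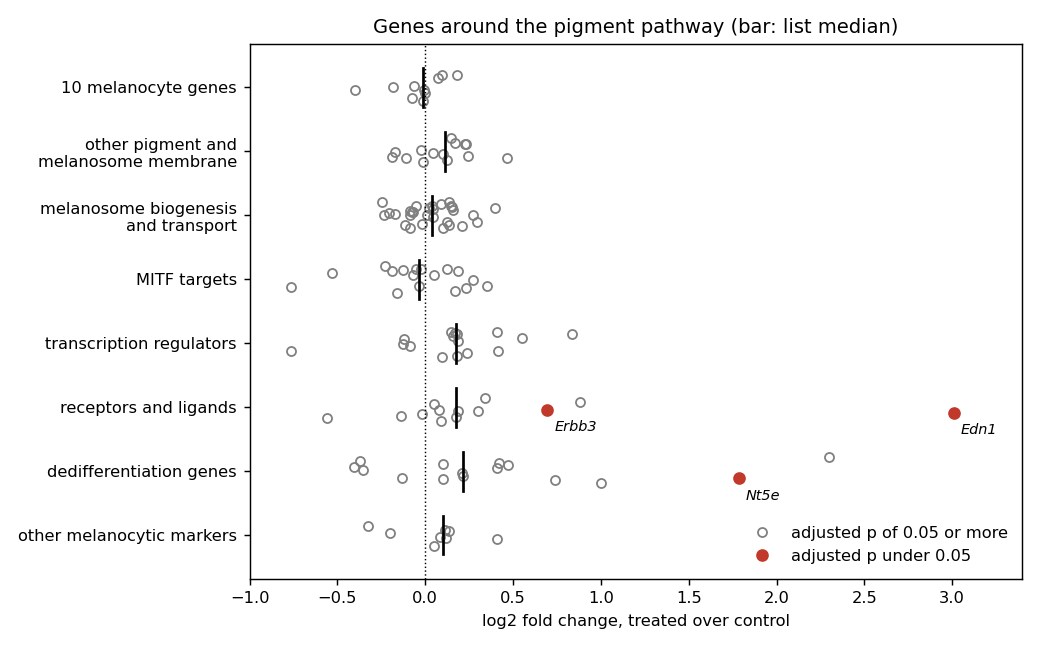
Log2 fold change, treated over control, of every tested gene of the 10 melanocyte genes and 7 further lists, with filled points for edgeR adjusted p under 0.05 and a bar at each list's median. Erbb3, Edn1 and Nt5e are the filled points, all above 0.

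Cells other than melanocytes that can express parts of the list were checked by their markers. Schwann cell markers, which share Sox10, were at 207.2 to 294.7 CPM in treated and 210.5 to 260.2 CPM in control libraries when 8 were summed, nearly all of it from Mbp (199.6 to 290.0 CPM in treated, 202.6 to 252.7 CPM in control libraries). Markers of retinal pigment epithelium, which shares Tyr, Dct and Pmel, summed over 5 tested genes to 19.7 to 22.3 CPM in treated and 20.2 to 28.4 CPM in control libraries. By edgeR 0 genes passed in either direction in both lists, with 0 and 1 at an unadjusted p under 0.05, and DESeq2 and the limma fits also called 0. Among all tested genes, 16% had an unadjusted p under 0.05. The fibroblast and pericyte, leukocyte and skeletal muscle lists likewise had 0 genes called by edgeR, with 2, 2 and 0 at an unadjusted p under 0.05. With 1 exception, S100a8 of the leukocyte list by DESeq2, the other tools called 0. DESeq2 called 754 of all tested genes higher. S100a8 had 12.7, 3.14 and 1.32 CPM in treated 1, 2 and 3, against 0.201, 0.233 and 0.614 CPM in control 1, 2 and 3. Without treated 3, edgeR called it too. Its highest library, treated 1, is the one with the keratinocyte counts, and the cells that made it were not tested. Keratinocyte markers stood out in 1 library: Krt14, named after its values were seen, had 2739, 0 and 0 counts in treated 1, 2 and 3, against 4, 0 and 0 in control 1, 2 and 3. Skin holds melanocytes of its own. Without treated 1, edgeR again called 0 of the 10 melanocyte genes, with log2 fold changes of 0.14 for Tyrp1 and 0.18 for Pmel and a median of 0.014. Without treated 3, which stood apart on the first principal component, edgeR also called 0 of the 10. Their median was then -0.070, with 3 log2 fold changes above 0.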

How the data were processed

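RNA-seq was measured in 3 libraries from treated and 3 libraries from control mouse tumours. The authors deposited raw read counts and FPKM (fragments scaled by transcript length and library depth) per gene, per the file headers. FPKM follow the counts: of 13090 genes with at least 50 counts in all 6 libraries, 99.2% or more agreed within 1% in every library, given 1 factor per gene and 1 per library. Tools named in the submitters' processing notes are fastp, StringTie and edgeR, without versions. Aligner, build, annotation and strand use in counting were not given in the sources used here. Coordinates are the deposited ones, and 90.0% of genes had the start and end of GENCODE M21 (GRCm38).

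From the deposited counts, edgeR 4.0.16 (R 4.3.3) kept genes by filterByExpr (minimum count 10, total 15), which removed 10319, scaled by TMM (factors 0.974 to 1.014) and applied its quasi-likelihood test, two-sided, with Benjamini-Hochberg adjustment over 18049 genes and a threshold of 0.05. CPM and log2 fold changes come from this fit, and intervals are 95%. Alternatives were DESeq2 1.42.0, limma 3.58.1 (voom, voom with sample weights, and log2 of deposited FPKM plus 0.1), 3 other scalings, 2 other filters, a replicate block and leaving out each library. All pairs of libraries differed by more than sampling noise (chi-square per gene 18.4 to 92.7), so none looked like 1 library deposited more than once; this does not show that they are separate animals.

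The 10 genes and all lists were chosen with earlier results of these data known. Named are every one of the 10 genes and, of each other list, the most abundant gene and the 3 with the lowest p, and the 5 genes most like the mean of the 10. Of lists for other cell types, summed levels and calls are given, with single genes where a sum rests on them, and also Vwf, S100a8 and Krt14. Promoters are from RefSeq tables of GRCm38.p6. Genes of the lists that are not among the rows were not analysed here, and those below the filter were not tested. For keratinocyte markers below the filter, such as Krt14, counts are given without a test.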

Additional observations from a re-analysis of the deposited data

How the results depend on the processing

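The count of 0 of the 10 genes called, higher or lower, held in all 16 alternatives, with a lowest adjusted p of 0.103 (Pmel, limma-voom with sample weights). Over all genes, 246 rose and 45 fell; DESeq2 gave 754 and 367, limma-voom with sample weights 601 and 191, no low-count filter 10 lower, and limma on log2 FPKM 24 lower. Leaving out 1 library gave 94 to 308 higher and 3 to 39 lower. The share of calls that were higher was 84.5%, and 67.3% with DESeq2. The cause of these shifts was not tested.

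Treated and control libraries with the same replicate number had correlations of deviations of 0.086, -0.16 and -0.11 for numbers 1, 2 and 3. With 3 numbers this cannot show whether such libraries share an animal, litter or day, which the labels do not say. With a replicate block 123 genes rose and 14 fell, and Mlana was at -2.4e-05.

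Signs turned only for values near 0. The log2 fold change of Mlana, 0.00056, was -0.0032 with RLE scaling, -0.013 with upper quartile and with library size scaling, -0.0033 with DESeq2, -0.00036 with limma-voom, -0.024 with sample weights and -0.0070 on FPKM. Leaving out 1 library gave -0.040 to 0.037 for Mlana, -0.044 to 0.20 for Sox10, -0.096 to 0.081 for Mc1r, -0.051 to 0.036 for Oca2, -0.0043 to 0.10 for Met and -0.037 to 0.22 for Tspan10, which was -0.036 with sample weights. Of the other values of named genes, 514 stayed on their side of the threshold, 14 passed it and 13 no longer did. Depth did not limit the 10 genes, whose smallest count was 4945.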

Other observations

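The genes whose log2 CPM ran most like the mean of the 10 melanocyte genes over the 6 libraries were Tyro3 (Pearson r = 0.991), Ubxn6 (0.989), Cdk16 (0.983), Vill (0.979) and Rpl7a-ps11 (0.978). These are descriptions picked from 18049 tested genes over 6 libraries that share their scaling, with no test, and the 5 genes had edgeR adjusted p of 0.833 to 0.923 between treated and control tumours. Tyro3 encodes a receptor kinase related to Axl. Among the 10 genes themselves, Oca2 was most like their mean (0.971), while Tyrp1 (0.163) and Pmel (0.308), the genes with treated libraries above all controls, were least like it. Each of the 10 genes is part of that mean, so their r cannot be set beside those of the 5 other genes.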
